A study of Homo sapiens with 40 samples.

Results

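Chromosome 4 beyond its translocated tip was examined as the set of all 25-kb windows (bins) of hg38 chromosome 4 that start at position 3000000 or later, 7488 of the 121213 bins on chromosomes 1 to 22 and X. The score of a bin in a library was the percent of its bases inside a called H3K27me3 peak, here called its covered percent. The chromosome was chosen by a measured value, its high share of bins with more coverage in the NSD2 knockout (KO) clones than in their parental line, and because it is the chromosome of NSD2. Values of the KO libraries are therefore given as a description. The tests rest on the 24 libraries of the degradation (dTAG) experiment, which the choice did not use.

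All libraries came from KMS-11, an established multiple myeloma cell line with the translocation t(4;14), which places NSD2 under immunoglobulin control and raises its expression. The groups were NSD2 KO clone 3 and KO clone 12 and the KO parental line. They further comprised NSD2-dTAG clone 8 and clone 11, in which NSD2 carries a degradation tag, and the dTAG parental line without the tag. These last 3 were each sampled at days 0, 7, 14 and 21 of dTAGV-1, a compound that directs tagged proteins to the VHL ubiquitin ligase. The dose was 100 nM for the NSD2-dTAG cells and is not stated for the parental line. Each of the 15 groups had 2 libraries. Every group carries the translocation, and every KO or dTAG group is 1 clone, so the 2 libraries of a group share that clone. The series text calls the clone replicates biological, whereas the labels do not say whether the 2 parental libraries had separate cultures. The p-values thus reflect library-to-library spread, part of which may be technical.

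H3K27me3 is the trimethylated form of lysine 27 of histone H3. It is written by Polycomb repressive complex 2, and in most cells it marks silent developmental genes in broad domains. NSD2 writes H3K36me2, a mark of active and intergenic chromatin that hinders Polycomb repressive complex 2 on the same histone tail. The first bins on the list lie in the short-arm band next to the NSD2 locus, a gene-dense region that holds the homeobox genes MSX1 and HMX1. The long arm holds clusters of tissue-specific genes such as the chemokines and fibrinogens.

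The promoters of 4 chromosome 4 genes are shown, 2 that were covered at both days and 2 whose coverage was higher at day 21. They run from 250 bases before to 50 bases after the transcript start, taken from the RefSeq table for GRCh38.p14 (hg38 coordinates) on the strand of the gene, with each CG dinucleotide in capitals. NEUROG2, a proneural factor (chr4:112516131-112516430, minus strand), and MSX1, a homeobox factor of tooth and limb (chr4:4859415-4859714, plus strand), had the highest promoter coverage among the 11 of 14 listed developmental factors that the table holds. FGG, a fibrinogen chain made in liver (chr4:154612607-154612906, minus strand), and EPHA5, a neuronal ephrin receptor (scored window chr4:65669439-65669738, minus strand), had the largest promoter gains at day 21 over day 0 among the 105 of 122 listed genes that it holds. The EPHA5 sequence shown is a different window of that gene, chr4:65670440-65670739 (minus strand). Coverage of that printed sequence is not given.
NEUROG2: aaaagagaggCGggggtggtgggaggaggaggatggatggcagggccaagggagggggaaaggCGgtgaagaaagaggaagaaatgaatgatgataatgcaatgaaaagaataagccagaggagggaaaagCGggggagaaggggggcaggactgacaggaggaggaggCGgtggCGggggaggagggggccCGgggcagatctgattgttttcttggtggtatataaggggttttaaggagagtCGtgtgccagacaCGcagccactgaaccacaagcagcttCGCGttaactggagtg
MSX1: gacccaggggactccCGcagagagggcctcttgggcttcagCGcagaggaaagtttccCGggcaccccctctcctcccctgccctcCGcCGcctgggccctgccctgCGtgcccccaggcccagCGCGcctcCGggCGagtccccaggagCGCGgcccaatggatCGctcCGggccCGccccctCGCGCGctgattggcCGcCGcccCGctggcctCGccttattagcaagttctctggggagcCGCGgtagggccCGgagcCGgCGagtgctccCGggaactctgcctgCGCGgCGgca
FGG: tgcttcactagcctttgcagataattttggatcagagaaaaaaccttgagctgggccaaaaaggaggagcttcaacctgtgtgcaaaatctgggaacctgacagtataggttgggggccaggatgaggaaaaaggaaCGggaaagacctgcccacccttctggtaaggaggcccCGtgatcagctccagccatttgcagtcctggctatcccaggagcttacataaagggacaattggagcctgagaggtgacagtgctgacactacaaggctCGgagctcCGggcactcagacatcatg
EPHA5: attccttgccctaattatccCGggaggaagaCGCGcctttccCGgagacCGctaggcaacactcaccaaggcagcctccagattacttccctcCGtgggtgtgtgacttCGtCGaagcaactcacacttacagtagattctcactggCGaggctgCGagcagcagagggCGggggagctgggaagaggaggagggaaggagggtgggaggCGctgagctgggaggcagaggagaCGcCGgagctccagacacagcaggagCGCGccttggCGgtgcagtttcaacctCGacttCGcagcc

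The NEUROG2 promoter, with 10 CG and 56.3% G or C, was wholly covered in all 4 day 21 and all 4 day 0 libraries of the dTAG clones. The MSX1 promoter, with 31 CG and 74.7% G or C, was covered by 78.3%, 100%, 100% and 90% at day 21 and wholly in the 4 day 0 libraries. Both were thus covered with and without the compound in the dTAG clones. In the KO clone 3 and KO clone 12 libraries the NEUROG2 promoter was covered by 100%, 0%, 100% and 0%. There the MSX1 promoter was covered by 77.0%, 100%, 84.7% and 75.7%. Both promoters were wholly covered in the KO parental libraries. The FGG promoter, with 4 CG and 52.0% G or C, was covered by 100%, 92.7%, 98.0% and 84.7% in the day 21 libraries and by 0% in each of the 4 day 0 libraries. The EPHA5 sequence shown has 19 CG and 61.7% G or C. The EPHA5 window that was scored, chr4:65669439-65669738, is not that sequence. This scored window was covered by 100%, 100%, 100% and 87.7% at day 21, against 6.00%, 0%, 45.3% and 0% at day 0. It was also covered in the untagged dTAG parental line, by 82.3% and 100% at day 21, against 65.3% and 0% at day 0. The FGG promoter was at 0% in those 4 parental libraries and at 63.3% in replicate 1 of the parental line at day 14.

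More of chromosome 4 lay under H3K27me3 peaks in the NSD2-dTAG clones under dTAGV-1 than at day 0. The covered percent of the chromosome averaged 0.670% ± 0.184 at day 0, 2.27% ± 0.325 at day 7, 2.57% ± 0.714 at day 14 and 2.64% ± 0.740 at day 21 in the dTAG clones (SD, n = 4 each). At day 21 the clone 8 libraries had 3.49% and 2.32% and the clone 11 libraries 2.96% and 1.79%. At day 0 they had 0.918% and 0.474% in clone 8 and 0.653% and 0.636% in clone 11. Every library at days 7, 14 and 21 was above every day 0 library. The day 21 mean was 3.94 times the day 0 mean, and the difference of 1.97 percentage points gave p = 0.0286 in an exact two-sided permutation test over libraries. This is the smallest p that 4 against 4 libraries allow, and it was 0.0286 after Benjamini-Hochberg adjustment over the 6 tests of level and ratio. Without replicate 2 of clone 8 or either library of clone 11 at day 0 the difference was 1.90 to 1.96 percentage points and p was 0.0571. The dTAG parental line had 1.31% and 0.686% at day 21, against 0.939% and 0.433% at day 0, so its days overlapped (exact permutation p = 0.667, where 2 against 2 libraries allow no less than 0.333).

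Depth moved with these levels. The lists of the clones covered 83.4 to 153 Mb of the genome at day 21, against 36.1 to 69.9 Mb at day 0. The background pileup of the peak caller, a stand-in for depth, was 1.61 to 2.84 fragments per position at day 21, against 0.922 to 2.31 at day 0. Per unit of pileup the covered percent differed by 0.641 percentage points between day 21 and day 0 (p = 0.0286, exact permutation).

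The other chromosomes had more coverage than chromosome 4 on both days, 4.05% ± 1.00 at day 21 and 1.73% ± 0.482 at day 0 (SD, n = 4 each). In percentage points the mean difference over chromosome 4 bins, 1.97, was below the 2.30 over all bins of the genome, while as a ratio chromosome 4 moved more. Its covered percent was 0.620 to 0.679 times that of the other chromosomes in the 4 day 21 libraries of the clones, and 0.381 to 0.397 times in the 4 day 0 libraries, with no overlap. The mean difference on the log2 scale was 0.63 at day 7, 0.79 at day 14 and 0.74 at day 21 (exact two-sided permutation p = 0.0286 and adjusted p = 0.0286 each). When every list was shortened to the same total length, the day 21 difference was 0.51 (p = 0.0286, exact permutation). The dTAG parental line had ratios of 0.385 and 0.360 at day 21, against 0.360 and 0.324 at day 0. At day 0, 0.670% of chromosome 4 was covered in the clones, and only chromosomes X and 13 were lower. Its 3.94-fold change was exceeded by chromosome 18 (4.93-fold) and chromosome 3 (3.95-fold), while chromosome 5 had 3.68-fold and chromosome 19, the most covered at day 0, had 1.08-fold.

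**Figure D1:**
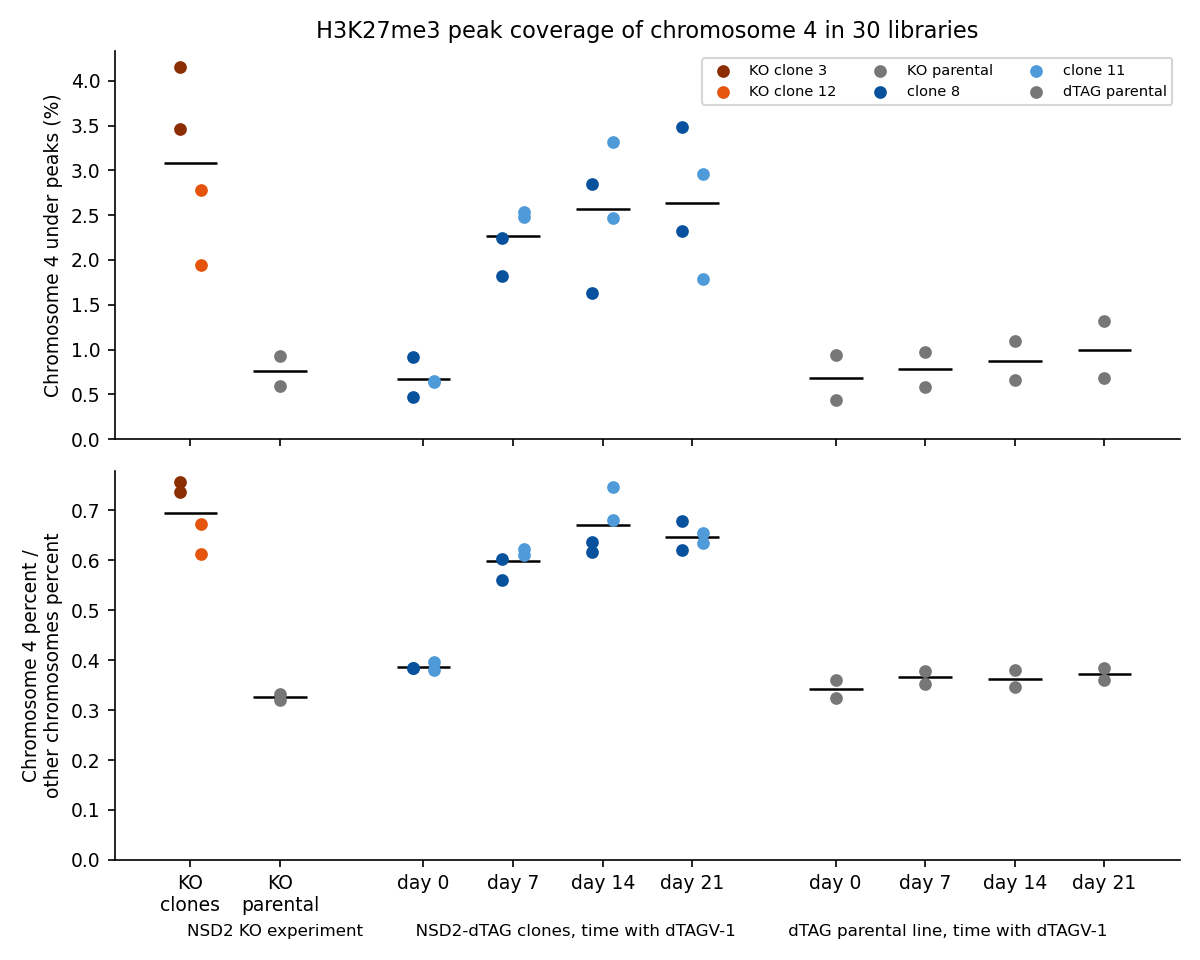
Percent of chromosome 4 from position 3000000 under H3K27me3 peaks (top) and the same divided by the percent of the other chromosomes (bottom), for each of 30 libraries (points) with group means (lines). In the NSD2-dTAG clones all libraries at days 7, 14 and 21 lie above the 4 day 0 libraries, while the days of the dTAG parental line overlap.

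**Figure D2:**
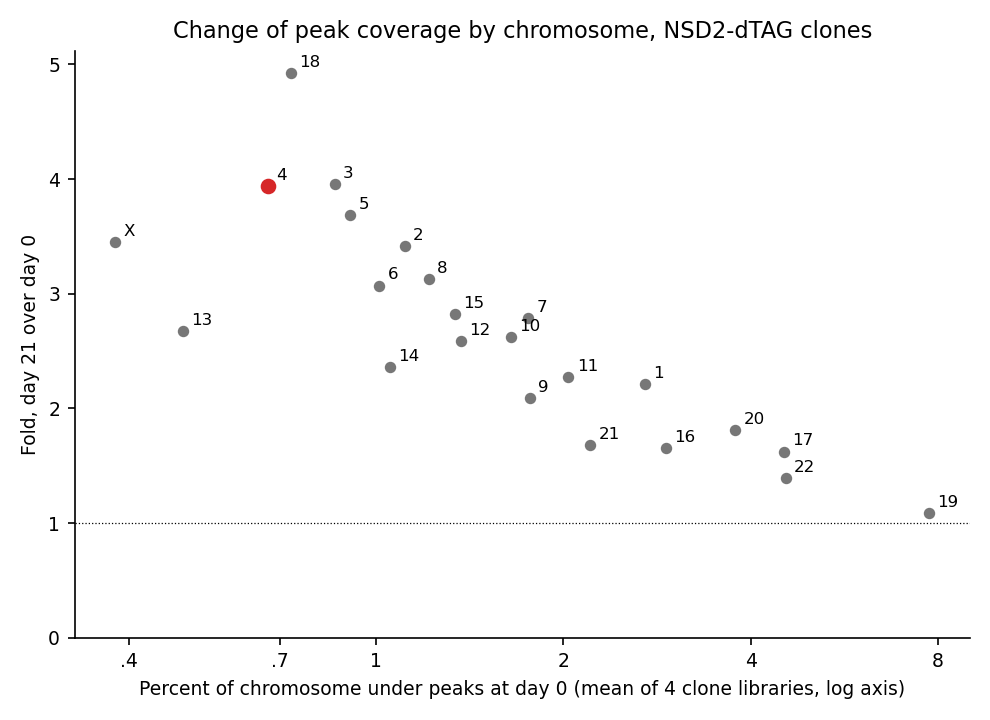
Fold of the covered percent, day 21 over day 0 (vertical axis), against the covered percent at day 0 (horizontal log axis) for each chromosome, as means of 4 NSD2-dTAG clone libraries per day. Chromosome 4 (red) lies at 0.670% and 3.94-fold, below chromosome 18 at 4.93-fold.

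The change was not spread evenly along the chromosome. The 280 bins between 3 and 10 Mb, next to the excluded tip, were covered by 12.8% and 8.91% in clone 8 and 10.7% and 6.10% in clone 11 at day 21, against 12.4% and 5.30% in clone 8 and 7.47% and 7.44% in clone 11 at day 0. The libraries of the 2 days overlapped, and the means of 9.62% ± 2.82 and 8.16% ± 3.02 (SD, n = 4 each) gave p = 0.486 in an exact permutation test. The excluded 120 bins before 3000000 had similar means, 9.36% at day 21 and 7.77% at day 0. The 7208 bins from 10 Mb on were covered by 3.13%, 2.07%, 2.66% and 1.62% at day 21, against 0.471%, 0.287%, 0.389% and 0.372% at day 0, a 6.24-fold change of the mean (exact permutation p = 0.0286, adjusted p = 0.0490 over 24 added tests). Within the same libraries, coverage from 10 Mb on was 0.232 to 0.265 times that of the 3 to 10 Mb stretch at day 21, and 0.0379 to 0.0542 times at day 0. The log2 difference of this ratio was 2.36 (exact permutation p = 0.0286, adjusted p = 0.0490 over 24 tests added after the profile had been seen), and it was 2.21 with lists of equal total length. The 3 to 10 Mb stretch thus held 13.6% ± 0.645 of the covered bases of the chromosome at day 21 and 44.7% ± 4.02 at day 0 (SD, n = 4 each).

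Beyond 10 Mb, 18 full segments of 10 Mb each had all 4 day 21 libraries above all 4 day 0 libraries (exact permutation p = 0.0286, adjusted p = 0.0317 over 20 segments). The last segment, 8 bins at the end of the long arm, had 3.86% at day 21 and 3.00% at day 0 (exact permutation p = 0.343). The most covered segments at day 21 were 70 to 80 Mb, with 5.20%, against 0.661% at day 0, and 80 to 90 Mb, with 4.46%, against 0.698% at day 0. The least covered was 60 to 70 Mb, with 0.441% at day 21 and 0.0619% at day 0. The largest fold, 8.24, was in the segment from 100 to 110 Mb, and the smallest among the 18 full segments, 3.49, in that from 10 to 20 Mb. On the short arm between 20 and 40 Mb, 245 and 261 of the 400 bins in each segment had no peak in any of the 30 libraries, while 25 of the 280 bins between 3 and 10 Mb had none. Taken from 50 Mb on, the long arm was covered by 2.74% ± 0.773 at day 21 and 0.420% ± 0.0842 at day 0. The short arm from 10 to 50 Mb had 1.05% ± 0.269 at day 21 and 0.239% ± 0.0464 at day 0 (SD, n = 4 each). The long arm was 2.41 to 2.75 times as covered as that short-arm stretch at day 21 and 1.65 to 1.92 times at day 0, a log2 difference of 0.57 (exact permutation p = 0.0286, adjusted p = 0.0490 over the 24 added tests).

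**Figure D3:**
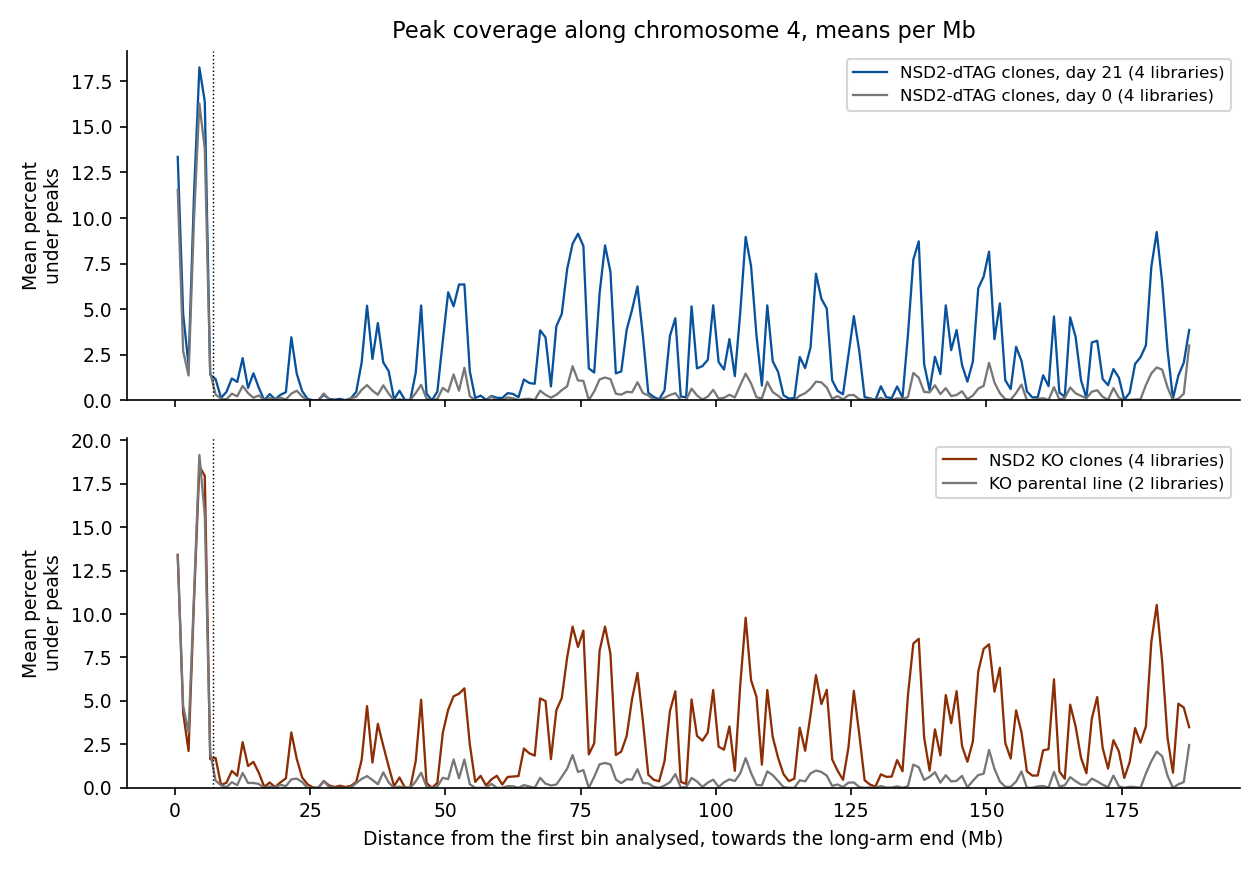
Mean covered percent of each Mb (vertical axis) against the distance from the first bin (horizontal axis, Mb), for day 21 and day 0 of the NSD2-dTAG clones (top) and for the KO clones and their parental line (bottom). Left of the dotted line, the first 280 bins, the lines of each panel lie close together, and right of it the day 21 and KO lines rise in separate domains above the day 0 and parental lines.

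Bins were next tested singly. Of the 7488 bins, 2268 had no peak in any library, 2354 had a mean covered percent of at least 1% over the 24 dTAG libraries and entered the test, and 2866 had some coverage but too little. The test was limma with 1 mean per group, and gained or lost means an adjusted p under 0.05 over all 47552 bins tested in the genome. A bin passes this filter more easily when its day 21 coverage is high, so shares of tested bins are read only against the same share in the genome. At day 7, 1108 chromosome 4 bins were gained, 47.1% of those tested, where 41.9% of all tested bins of the genome were. At day 14, 1463 were gained (62.1%), against 49.7% in the genome. At day 21, 1497 were gained (63.6%), against 54.2% in the genome, and 8 were lost (0.340%), against 0.372%. Between day 7 and day 21, 94 bins were further gained (3.99%), against 2.27% in the genome. Over all bins with no filter, every day 21 library was above every day 0 library in 1427 chromosome 4 bins (19.1%), against 19.2% of all bins of the genome, and every one was below in 11 bins (0.147%), against 0.224%. On this unfiltered count the chromosome was at the background of the genome.

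In the dTAG parental line, 0 of the 2354 bins were gained at day 21 by limma, where 0.0021% of all tested bins (1 bin) were. At an unadjusted limma p under 0.05, 32 chromosome 4 bins were higher and 0 lower. Some of the 2354 bins reach this unadjusted threshold without any change. The genome's shares at it are not given, here or below, so such counts are not read as a change. The change at day 21 was larger in the clones than in the parental line in 171 chromosome 4 bins (7.26%), against 4.35% in the genome, and smaller in 0 (19 at an unadjusted p under 0.05). This last count was unstable: it was between 0 and 630 when single libraries were left out, 2 with lists of equal total length and 1 when peaks were joined over gaps of up to 3 kb. The count of bins gained at day 21 was 1136 to 1556 when single libraries were left out. It was 136 of 996 tested bins when all lists had the same total length, and 0 of 642 with peaks of -log10 q of at least 5, where 132 were higher at an unadjusted p under 0.05. With coverage scaled by the called length of each list the day 21 split was 1156 gained and 215 lost bins, and with equal lengths 136 gained and 37 lost, against 1497 and 8 without scaling. The genome's shares under these alternative settings are not given here. Whether chromosome 4 exceeded the genome in these counts is therefore not read from them. Bins with no peak in any day 0 clone library have no spread there, so their p may be too small.

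The clones had on average 2789 chromosome 4 bins with a peak at day 21 and 884 at day 0. Of the 1497 gained bins, 994 had no peak in any of the 4 day 0 libraries of the clones and 503 had some. Gained bins were covered by 8.64% on average at day 21 and 0.714% at day 0, so that most of each bin stayed outside peaks. They formed 580 runs of neighbouring bins, 284 of which were single bins and 17 of which had at least 10 bins. Between 3 and 10 Mb, 18 of 200 tested bins were gained, and beyond 10 Mb 1479 of 2154.

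By gene content, 4299 of the bins held no protein-coding gene, 2204 lay wholly inside genes and 985 partly. Bins without a gene were covered by 2.07% ± 0.652 at day 21 and 0.314% ± 0.0996 at day 0, and bins inside genes by 2.36% ± 0.677 at day 21 and 0.700% ± 0.215 at day 0. Bins partly in genes, which hold the gene ends, had 5.75% ± 1.28 at day 21 and 2.16% ± 0.490 at day 0 (SD, n = 4 each). With no filter, every day 21 library was above every day 0 library in 16.5% of the bins without a gene, 15.4% of those inside genes and 38.3% of those partly in genes. On the other chromosomes these shares were 17.4%, 15.6% and 30.3%.

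The longest runs of gained bins were 22 bins each. The run at chr4:53450001-54000000 overlaps FIP1L1, an mRNA 3' end processing factor, and LNX1, a ubiquitin ligase. It was covered by 13.4%, 9.14%, 11.3% and 5.50% in the day 21 libraries of the clones, against 0.551%, 0.168%, 0.298% and 0.252% at day 0. The run at chr4:78075001-78625000 overlaps FRAS1, an extracellular matrix protein of skin and kidney development, and ANXA3, an annexin, and had 13.9%, 8.82%, 11.7% and 5.26% at day 21, against 0.585%, 0.451%, 0.503% and 0.519% at day 0. A run of 21 bins at chr4:77175001-77700000 holds CXCL13, a chemokine that attracts B cells. It had 16.4%, 11.6%, 14.3% and 7.55% at day 21, against 2.13%, 0.853%, 0.975% and 0.628% at day 0. The runs were made of bins chosen for their gain, and in none of the 3 did the days overlap in the clones. The dTAG parental line had means of 0.415%, 1.02% and 3.18% in these runs at day 21 and 0.224%, 0.567% and 1.93% at day 0. A further run of 21 bins, chr4:183725001-184250000 with STOX2 and ENPP6, tied in length with the run of CXCL13. It had means of 10.5% at day 21 and 1.04% at day 0 in the clones, and 1.92% and 1.08% in the dTAG parental line.

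Single bins were named by the size of their gain, among those with a limma adjusted p under 0.05 and no overlap between days. The p-values and the lack of overlap below follow from this choice. Bins at 0% in the day 0 and parental libraries entered the test only through the treated clones. Of the 8 single bins with the largest gains at least 1 Mb apart, only 1 overlapped a protein-coding gene. The bin with the largest difference, chr4:139575001-139600000, lies 18.8 kb from SETD7, a lysine methyltransferase gene. It was covered by 30.0%, 27.8%, 26.1% and 21.7% in the day 21 libraries of the clones, against 8.31%, 9.42%, 2.42% and 0% at day 0 (difference 21.3 percentage points, SE 3.5, limma adjusted p = 0.000216). The bin at chr4:112075001-112100000, 45.5 kb from FAM241A, had 21.1%, 27.4%, 18.6% and 16.1% at day 21 and 0% in all 4 day 0 libraries (adjusted p = 1.7e-05). Its KO clone libraries had 33.5%, 20.1%, 21.0% and 8.49%, against 0% in both KO parental libraries. The bin at chr4:155375001-155400000 overlaps MAP9, a microtubule-associated protein of the spindle. It had 26.6%, 19.1%, 23.1% and 17.3% at day 21, against 3.37%, 0%, 3.39% and 1.60% at day 0.

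The other 5 gained bins, at positions 108200001, 81875001, 102400001, 185075001 and 83625001, had day 21 means of 19.6% to 20.9% and day 0 means of 0% to 0.468%. By the rule that named them their libraries did not overlap, and their limma adjusted p was 1.3e-05 to 0.000404. Their nearest genes were LOC124900752, RASGEF1B, SLC39A8 (a zinc transporter), SLC25A4 (the mitochondrial ADP/ATP carrier) and GPAT3 (an acyltransferase of triglyceride synthesis), at 19.1 to 403 kb. In 5 of the 8 bins the change was larger in the clones than in the dTAG parental line by limma, with differences of 18.6 to 20.8 percentage points and adjusted p of 0.0186 to 0.0374. When either library of the dTAG parental line at day 0 or day 21, or any clone library at day 0, was left out (8 libraries in all), 0 chromosome 4 bins were called, so each of these 5 calls was lost. The parental line had no peak at either day in 4 of these 5.

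Among the lost bins with the largest differences, named by the same rule, 3 on the short arm are described. The bin inside LDB2, a cofactor of LIM homeodomain proteins (chr4:16650001-16675000), was covered by 1.31%, 0%, 0% and 1.08% at day 21, against 11.6%, 8.67%, 6.94% and 6.72% at day 0 (difference -7.88 percentage points, SE 2.16, limma adjusted p = 0.00623). The dTAG parental line had 9.04% and 4.01% there at day 21 and 9.75% and 5.10% at day 0. The bin that overlaps DEFB131A, a beta-defensin gene (chr4:9450001-9475000), had 1.90%, 4.14%, 0% and 2.72% at day 21, against 7.80%, 9.04%, 8.17% and 7.70% at day 0 (adjusted p = 0.00506). The bin at chr4:30000001-30025000, 692 kb from the nearest gene, had 0% in all 4 day 21 libraries, against 2.39%, 5.52%, 7.06% and 1.35% at day 0 (adjusted p = 0.0159). It was not called without replicate 2 of clone 8 or replicate 1 of clone 11 at day 0, with adjusted p up to 0.100. The dTAG parental line had means of 4.58% there at day 21 and 6.13% at day 0. In none of the 3 bins did the change differ between the clones and the parental line by limma (adjusted p = 0.229, 0.153 and 0.476, in the order given). In the same order, the KO clones had means of 4.81%, 2.965% and 2.19%. The KO parental line had 5.10%, 4.06% and 9.05%.

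The 6 most covered bins at least 1 Mb apart, by their mean over the 24 dTAG libraries, were covered with and without the compound, and 5 of them lay between 3 and 10 Mb. Bins closer to these were passed over, whatever their coverage. The first, chr4:3475001-3500000, overlaps DOK7, an adaptor of the neuromuscular junction, and was covered by 53.5%, 37.9%, 48.1% and 27.4% at day 21, against 50.5%, 34.6%, 38.4% and 25.7% at day 0 (limma adjusted p = 0.617). The second, chr4:6325001-6350000 in PPP2R2C, a phosphatase subunit of brain, had 42.1%, 44.1%, 47.7% and 33.6% at day 21, against 54.5%, 29.7%, 34.9% and 31.3% at day 0 (adjusted p = 0.594). The bin of MSX1, chr4:4850001-4875000, had 29.8%, 21.7%, 25.1% and 22.1% at day 21, against 35.2%, 25.5%, 21.7% and 29.2% at day 0 (adjusted p = 0.521). The bins of SORCS2, a sorting receptor of neurons (chr4:7425001-7450000), and beside HMX1 (chr4:8900001-8925000) had means of 25.5% and 22.7% at day 21 and 18.7% and 21.1% at day 0, with overlapping libraries. The only one on the long arm, chr4:112500001-112525000 with NEUROG2, had 26.1%, 24.3%, 20.1% and 24.6% at day 21, against 17.9%, 16.4%, 18.2% and 17.4% at day 0. These did not overlap, with a difference of 6.33 percentage points (SE 2.65) and limma adjusted p = 0.0524.

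Around the start position of the set, GRK4, a kinase of G protein-coupled receptors, spans the border. The last 2 bins before 3000000 had means of 10.8% and 12.2% at day 21 and 8.29% and 2.40% at day 0 in the clones. The first 2 bins from 3000000 on had 7.07% and 15.8% at day 21 and 0% and 9.64% at day 0.

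Genes were scored by the percent of their annotated bases under peaks. Of 704 protein-coding genes of at least 1 kb on chromosome 4 from 3000000, 421 passed the same filter, and at day 21 limma called 174 gained (41.3%), against 26.3% of the genome's tested genes, and 3 lost (0.713%), against 0.466%. The count of gained genes was 26 of 273 tested with lists of equal total length and 0 of 184 with peaks of -log10 q of at least 5. The genome's shares of gained genes under these settings are not given here. Over all 704 genes the median difference was 0.756 percentage points, against 0.743 over all 19447 genes, so the middle of the distribution was at the background of the genome. A gene that is at 0% at day 0 enters the test only through its coverage in other libraries, so a count of gained genes among the tested members of a list is given as a description only. Each such count stands beside the shares of 41.3% and 26.3% above. Genes at 0% in every day 0 clone library have no spread there. Their limma p may be too small, and it follows in part from the filter, so it is given as a description too. The 122 genes in 14 lists below were chosen for their roles with earlier results of these data known.

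Of 14 developmental factors, 11 were tested, 3 were gained and 0 lost, and the median over all 14 was 1.94 percentage points. HOPX, a homeodomain-only protein of heart muscle and stem cells (chr4:56647998-56681706), was covered by 27.4%, 15.0%, 19.2% and 17.2% at day 21, against 9.39%, 10.1%, 5.83% and 5.78% at day 0 (limma adjusted p = 0.0125, and 0.0714 without replicate 1 of clone 8 at day 21). With peaks of -log10 q of at least 5 the difference was -0.0393 percentage points. In the scored promoter window of HOPX (chr4:56656468-56656767) the mean difference between day 21 and day 0 was -37.9 percentage points, which was not tested. PRDM8, a PR domain factor of neurons and retina, had means of 15.0% at day 21 and 6.24% at day 0 (adjusted p = 0.0337). That call was lost without any of 5 libraries: replicate 2 of clone 8 and both of clone 11 at day 0, and replicate 1 of either clone at day 21, with adjusted p up to 0.149. GSX2, a homeobox factor of the forebrain, had 35.1%, 56.3%, 46.2% and 0% at day 21, against 57.1%, 32.4%, 48.6% and 48.6% at day 0 (adjusted p = 0.585). The body of NEUROG2 was covered by 71.0% to 73.7% at day 21 and 69.9% to 71.9% at day 0.

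Of 9 secreted patterning and growth factors, 5 were tested and 0 called, with a median of 0.624 percentage points over all 9. SFRP2, a secreted Wnt antagonist, had 48.4%, 4.75%, 18.9% and 6.28% at day 21, against 8.12%, 4.18%, 0% and 5.48% at day 0 (limma adjusted p = 0.135). SHISA3, an antagonist of Wnt and FGF receptors, had means of 28.8% at day 21 and 24.3% at day 0, and BMP3, a bone morphogenetic protein, 7.61% at day 21 and 5.21% at day 0. None of the 8 neurotransmitter receptors was covered enough to be tested. GLRB, GLRA3 and GRIA2, subunits of glycine and AMPA receptors, had day 21 means of 0.867%, 0.927% and 0.767% and day 0 means of 0%, 0.121% and 0.157%.

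Of 8 adhesion genes, 5 were tested and 3 gained, with a median of 0.563 percentage points over all 8. UNC5C, a netrin receptor (chr4:95162504-95548973), had 8.93%, 6.68%, 7.61% and 6.92% at day 21, against 0.259%, 0.426%, 0.581% and 0.212% at day 0 (difference 7.17 percentage points, SE 1.03, limma adjusted p = 0.000247). TENM3, a teneurin of neural circuits, had means of 2.13% at day 21 and 0.278% at day 0 (adjusted p = 0.00103). PCDH18, a protocadherin, had 5.13% at day 21 and 0% at day 0 (adjusted p = 0.0115, and 0.0548 without replicate 1 of clone 8 at day 21).

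The 4 receptor tyrosine kinases showed different patterns although 3 of them are neighbours. KDR, the receptor of vascular endothelial growth factor (chr4:55078481-55125595), had 10.4%, 8.04%, 12.4% and 5.76% at day 21 and 0% in all 4 day 0 libraries (limma adjusted p = 0.000549). KIT, the receptor of stem cell factor (chr4:54657957-54740715), had 9.57%, 6.45%, 8.09% and 8.08% at day 21, against 3.55%, 2.54%, 3.25% and 3.49% at day 0 (adjusted p = 0.0150, and up to 0.0748 without replicate 2 of clone 8 at day 0 or replicate 1 of clone 8 at day 21). PDGFRA, the platelet-derived growth factor receptor (chr4:54229293-54298245), had 4.68%, 3.16%, 2.94% and 2.25% at day 21, against 5.12%, 2.84%, 3.82% and 4.10% at day 0 (adjusted p = 0.614). EPHA5, whose promoter coverage is given above, had a body coverage too low to be tested.

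Of 12 chemokines in the cluster on the long arm, 10 were tested and 2 gained, and the median over all 12 was 8.45 percentage points. PPBP, the platelet basic protein (chr4:73986439-73988190), had 32.2%, 0%, 41.2% and 32.2% at day 21 and 0% in all 4 day 0 libraries (limma adjusted p = 0.00677). CXCL1, which attracts neutrophils, had 63.5%, 0%, 60.6% and 0% at day 21 and 0% at day 0 (adjusted p = 0.205), and its 2 libraries at 0% were replicate 2 of each clone. The untagged dTAG parental line had 57.6% and 0% at day 21 and 0% in both day 0 libraries, and the change in the clones exceeded that in the parental line by 2.24 percentage points (limma adjusted p = 0.986). PF4, platelet factor, had 29.0%, 14.2%, 42.8% and 0% at day 21 and 0% at day 0 (adjusted p = 0.183). CXCL3, a related chemokine outside the rule for named genes, had means of 20.4% at day 21 and 40.9% at day 0 (adjusted p = 0.205). These genes are short, so 1 peak covers much of them. CXCL13, in the run described above, was the other gained member, singled out after its values were seen, with 13.4%, 10.6%, 10.9% and 6.09% at day 21, against 0.967%, 0.377%, 0.393% and 0.376% at day 0.

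Of 11 milk, saliva and tooth proteins, 3 were covered enough to be tested, 2 of them at 0% at day 0, and these 3 were called. The median over the 11 was 1.04 percentage points. AMTN, an enamel protein (chr4:70518569-70532743), had 25.5%, 18.5%, 15.9% and 4.54% at day 21 and 0% at day 0 (limma adjusted p = 0.00312). MUC7, a salivary mucin, had means of 7.28% at day 21 and 0.671% at day 0, and AMBN, an enamel matrix protein, 8.24% at day 21 and 0% at day 0. Their adjusted p of 0.0375 and 0.0214 passed the threshold no longer (up to 0.174 and 0.112) without replicate 1 of either clone at day 21 or without single day 0 libraries, any of the 4 for MUC7 and all but replicate 1 of clone 8 for AMBN. None of the 9 UGT2 glucuronosyltransferases was tested, and 5 of them had no peak in any library. UGT2B7, UGT2B4 and UGT2B15 had day 21 means of 1.54%, 0.531% and 0.435% and 0% at day 0. Members of this family are near-identical copies, where reads that match several places can be lost.

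Of 7 liver plasma proteins, 2 were covered enough to be tested, both of them at 0% at day 0, and both were called. FGG (chr4:154604136-154612656) had 14.4%, 11.3%, 12.5% and 0.0469% at day 21, and FGA, another fibrinogen chain, had 4.36%, 5.8%, 0% and 4.86%, against 0% in all 4 day 0 libraries for both (limma adjusted p = 0.0303 and 0.027). Both calls were lost without any day 0 clone library, FGG also without replicate 1 and FGA without replicate 2 of either clone at day 21, with adjusted p up to 0.161 and 0.115. AFP, alpha-fetoprotein, had a mean of 2.53% at day 21 and 0.432% at day 0 and was not tested. Of 7 alcohol dehydrogenases 2 were tested and 1, ADH4, was gained, with 3.48% at day 21 and 0% at day 0 (adjusted p = 0.0247, and up to 0.0668 without any day 0 clone library). ADH5, the ubiquitous member, had 2.11% at day 21 and 1.70% at day 0 (adjusted p = 0.714), and ADH7, the stomach form, 0.386% at day 21 and 0% at day 0.

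Of 5 bone matrix proteins, 3 were tested and 2 gained. MEPE (chr4:87821398-87846792) had 13.8%, 9.53%, 15.9% and 8.77% at day 21 and 0% at day 0 (limma adjusted p = 0.000415). DMP1 had 4.40% at day 21 and 0% at day 0 (adjusted p = 0.0127, and 0.0512 without replicate 1 of clone 8 at day 21). SPP1, osteopontin, had 2.11% at day 21 and 0% at day 0 (adjusted p = 0.678). The medians over all members were 0.658 percentage points for the liver proteins, 0 for the dehydrogenases and 2.11 for the bone proteins.

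Of 10 plasma cell and lymphoid genes, 7 were tested and 4 gained, with a median of 2.11 percentage points over all 10. TXK, a tyrosine kinase of T cells (chr4:48066393-48134250), had 12.1%, 13.4%, 7.67% and 9.40% at day 21, against 1.11%, 0%, 0.874% and 0.632% at day 0 (difference 9.98 percentage points, SE 1.15, limma adjusted p = 7.6e-05). BST1, a surface ectoenzyme, had 13.0%, 9.66%, 8.67% and 4.49% at day 21, against 2.22%, 0.897%, 1.27% and 1.98% at day 0 (adjusted p = 0.000555), and with peaks of -log10 q of at least 5 the difference was -0.167 percentage points. RHOH, a GTPase of blood cells, had means of 4.77% at day 21 and 0.290% at day 0 (adjusted p = 0.00119). CD38, the related ectoenzyme of plasma cells beside BST1, had 8.14%, 6.74%, 4.71% and 2.34% at day 21, against 5.57%, 1.83%, 2.71% and 1.33% at day 0 (adjusted p = 0.186). JCHAIN, the joining chain that plasma cells make, was at 0% in all 8 of these libraries. TEC, the other kinase beside TXK, was the remaining gained member.

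Of 5 Toll-like receptors, 4 were covered enough to be tested, 2 of them at 0% at day 0, and these 4 were called, with a median of 3.88 percentage points over the 5. TLR3, the receptor of double-stranded RNA (chr4:186069156-186088073), had 11.1%, 9.59%, 15.7% and 4.89% at day 21 and 0% at day 0 (limma adjusted p = 0.00331). TLR10 had 5.07%, 7.92%, 5.92% and 11.4% at day 21 and 0% at day 0 (adjusted p = 0.0436). TLR2 had 5.31%, 8.23%, 7.44% and 4.40% at day 21, against 3.00%, 1.08%, 3.00% and 2.74% at day 0 (adjusted p = 0.038). The TLR10 call was lost without any of 17 of the 24 libraries, and the TLR2 call without replicate 2 of clone 8 or either library of clone 11 at day 0, or replicate 2 of clone 8 or replicate 1 of clone 11 at day 21, with adjusted p up to 0.135 and 0.156. The TLR2 difference was -0.248 percentage points with lists of equal total length and -0.751 with peaks of -log10 q of at least 5.

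Of 13 genes of dividing cells, a set of widely expressed genes, 11 were tested and 1 gained, with a median of 0.739 percentage points over all 13. The gained member was HNRNPDL, an RNA-binding protein, with 19.0%, 18.4%, 18.7% and 13.3% at day 21, against 3.80%, 14.1%, 3.33% and 2.68% at day 0 (limma adjusted p = 0.00181). CCNA2, the cyclin of S and G2 phase, had means of 9.97% at day 21 and 4.78% at day 0 (adjusted p = 0.119). H2AZ1, a histone variant gene, had 1.51%, 0%, 1.28% and 0% at day 21, against 1.46%, 0%, 0% and 51.3% at day 0 (adjusted p = 0.378), so that its mean rests on replicate 2 of clone 11.

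**Figure D4:**
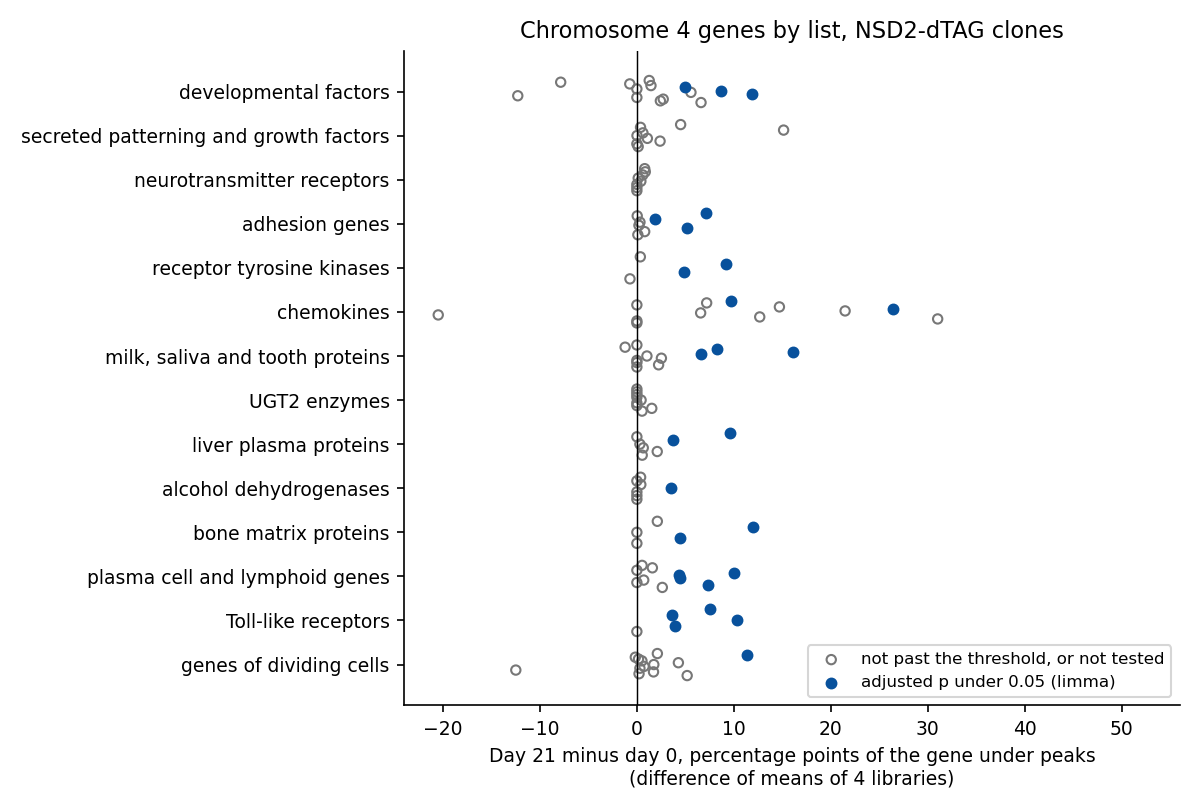
Difference of covered percent between day 21 and day 0 (horizontal axis, percentage points, means of 4 NSD2-dTAG clone libraries) for each of 122 chromosome 4 genes, by list. Filled points passed limma's adjusted p of 0.05, all of them to the right of 0, and many members of the UGT2, dehydrogenase and receptor lists lie at 0.

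Promoter windows were grouped by their coverage pattern. Of 606 chromosome 4 protein-coding genes with a promoter sequence, 242 had at least 50% of the window covered in at least 20 of the 24 dTAG libraries, and 161 never reached 50% in any of 30 libraries. The windows covered in most libraries held a median of 28 CG (range 3 to 51) and those never covered a median of 4 (range 0 to 51). In 15 genes the window passed 50% in all 4 day 21 libraries and in none of the 4 day 0 libraries of the clones, with a median of 18 CG (range 1 to 47). The remaining 188 genes, with mixed patterns, had the same median of 18 CG (range 0 to 59). The median over all 606 was 22 CG, and that over all 27305 promoters in the table was 14. FGG, with 4 CG, and EPHA5, with 19 in the sequence shown rather than in the window scored, belong to the 15. MSX1, with 31, and NEUROG2, with 10, belong to the 242. These counts describe the windows, were not tested and are not set against the promoters of other chromosomes. They are therefore not read as particular to chromosome 4.

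The clones had 8623, 5169, 7203 and 4297 peaks on the chromosome at day 21, against 1720, 991, 1463 and 1274 at day 0. Peaks with -log10 q of at least 5 held 9.82% to 16.9% of the covered length at day 21 and 15.5% to 40.0% at day 0 (exact permutation p = 0.0571, adjusted p = 0.0857 over the 24 added tests). Such strong peaks covered 0.363% ± 0.178 of the chromosome at day 21 and 0.203% ± 0.128 at day 0 (SD, n = 4 each, exact permutation p = 0.200). Within these strong peaks the log2 ratio of coverage from 10 Mb on to the 3 to 10 Mb stretch still differed by 1.54 between the days (exact permutation p = 0.0286). The median peak width was 565 to 657 bp at day 21 and 643 to 713 bp at day 0.

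In the KO experiment, whose values chose the chromosome, KO clone 3 had 4.15% and 3.46% and KO clone 12 had 2.78% and 1.95% of the chromosome covered, against 0.924% and 0.592% in the KO parental line. The ratio to the other chromosomes was 0.737 and 0.756 in clone 3 and 0.672 and 0.613 in clone 12, against 0.332 and 0.321 in the parental line. By the choice itself, 1383 of 2530 tested bins were gained (54.7%), against 37.3% in the genome, in a fit of all 30 libraries. The 6 KO libraries fitted alone gave 772 gained bins, and peaks of -log10 q of at least 5 gave 0. Clone 3 libraries lay above clone 12 libraries in both measures. The profile was again flat near the tip: the 3 to 10 Mb stretch had means of 9.81% in the KO clones and 9.88% in the parental line. The segment from 60 to 70 Mb had 0.956% in the KO clones and 0.0654% in the parental line. Of the 1497 bins gained at day 21, 1053 (70.3%) were among those gained in the KO clones, of which they made up 76.1%. On the other chromosomes these shares were 54.4% and 76.8%. The KO values chose the chromosome, so nothing is read from this overlap.

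Plasma cell identity could not be checked directly, since no expression was measured in these libraries, and only the coverage of marker genes is given. Of 8 plasma cell markers, 5 had a mean covered percent of at least 1% over the dTAG libraries, with a median of 3.66%. All 4 B cell, 4 T cell and 4 myeloid markers did, with medians of 18.6%, 3.19% and 11.7%.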

How the data were processed

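H3K27me3 was profiled by CUT&Tag in 30 libraries of KMS-11 cells, 15 groups of 2, and 10 further libraries (IgG, H3K27ac and H3K4me3) were not analysed here. The authors deposited 1 broad peak list per library on hg38. Per the submitters' processing notes, the tools named include MACS3 3.0.2, Bowtie2, fastp 0.24.0, Picard and SAMtools, and the notes also name ChIPseeker 1.42.1, deepTools 3.5.1 and DESeq2. Calling options and any control library are not stated there. The deposited lists give each peak a score, a fold enrichment over the caller's background (a ratio), and a −log10 p and a −log10 q, all the authors' own values. No read counts were used, so depth was estimated from the pileup of the shortest peaks.

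Peaks were merged per library, and the covered percent of each 25-kb bin, gene of at least 1 kb and RefSeq promoter window was computed (Python 3.11.15, pandas 2.3.3, numpy 2.4.6). Features with a mean of 1% to 99% over the 24 dTAG libraries were fitted with limma 3.58.1 (R 4.3.3), with 1 mean per group, trended empirical Bayes and Benjamini-Hochberg adjustment over all tested features of the genome, at 0.05. The KO contrast used all 30 libraries. The procedure was tested on simulated data. Library-level values were compared with exact permutation tests (scipy 1.17.1).

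Named by rule were the 8 largest gained and 4 largest lost bins with no overlap between days, the 6 most covered bins (each of these sets at least 1 Mb apart), the bins at the border, the 3 longest runs (the third tied in length with another) and up to 3 members of each list with the largest differences. Of these, 1 lost bin is not reported here, nor is 1 gained list member. CD38, JCHAIN, TEC and the body of NEUROG2 are named outside that rule, chosen after their values were seen. The members, lists and tests were chosen with earlier results of these data known. Alternatives were stricter peaks, lists of equal total length, joined gaps, scaling by called length, pileup as covariate, all libraries in the fit, no filter, a replicate block and leaving out each library. The comparisons of bins before and after 10 Mb, of the arms and of peak strength were added after seeing the data.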

Additional observations from a re-analysis of the deposited data

Results flagged for a closer look

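In 170 groups of 4 clone libraries, 15 held a library far from the other 3 by Dixon's criterion. Its chance rate of about 1 in 20 holds for normally distributed values, not for values at a floor of 0%. Where 3 libraries are at 0% and 1 is not, the flag is automatic, as for the bin at 108200001 at day 0. The 15 of 170 are therefore not read as an excess. At day 21, replicate 1 of clone 8 stood high for the bin at 108200001 (32.8%), SHISA3 (45.3%), UGT2B4 (2.12%), UGT2B7 (4.81%) and SPP1 (6.82%). Replicate 2 of clone 8 stood high at day 21 for ADH7 (1.54%). Replicate 1 of clone 11 stood high at day 21 for DMP1 (10.1%). Replicate 2 of clone 11 stood high at day 21 for UGT2B15 (1.74%) and low for HNRNPDL (13.3%).

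At day 0, replicate 2 of clone 11 stood high for the bin at 108200001 (1.40%), AFP (1.73%) and H2AZ1 (51.3%). Replicate 2 of clone 8 stood high at day 0 for the bin at 83625001 (1.87%) and HNRNPDL (14.1%), and low for TLR2 (1.08%).

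In 5 named bins the change between day 21 and day 0 was larger in the dTAG clones than in the dTAG parental line by the limma interaction term. The differences of the changes were 20.8 percentage points at 112075001, 20.6 at 108200001, 20.3 at 81875001, 20.0 at 102400001 and 18.6 at 83625001. No chromosome 4 bin was called by this term, these 5 included, when any of 8 libraries was left out: both of the dTAG parental line at day 0 and at day 21 and the 4 clone libraries at day 0.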

How the results depend on the processing

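With peaks of -log10 q of at least 5, the counts of gained bins at days 7, 14 and 21, of lost bins, of bins that changed more in the clones than in the parental line, of gained genes and of KO gained and lost bins were each 0. The covered percent then differed by 0.151, 0.113 and 0.160 percentage points at days 7, 14 and 21 and by 0.181 from 10 Mb on, with exact permutation p of 0.114, 0.257, 0.200 and 0.114. With lists of equal total length, gained bins numbered 86, 146 and 136 at days 7, 14 and 21, lost bins 37, bins that changed more in the clones 2 and gained genes 26. Joining gaps up to 3 kb gave 570 gained bins at day 7, 3 lost and 1 that changed more in the clones. A pileup covariate gave 632 gained bins at day 7 and 64 lost. Scaling by called length gave 215 lost bins and 282 that changed more in the clones, and no filter gave 82 that changed more in the clones. The KO libraries fitted alone gave 772 gained and 4 lost bins. The genome's shares under these settings are not given here, so these counts are not set against the background. HOPX (-0.0393), BST1 (-0.167) and TLR2 (-0.751) reversed with -log10 q of at least 5, and TLR2 (-0.248) with equal length.

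With the replicate block, 314 bins changed more in the clones. Permuting labels within replicate numbers allows no p below 0.0556, so that the differences in percent (1.60, 1.90 and 1.97, and 1.99 from 10 Mb on) and in log2 ratio (0.63, 0.79 and 0.74, and 2.36 for bins from 10 Mb over 3 to 10 Mb) could not pass. What libraries with the same replicate number share is not stated. The replicate differences of 6 pairs of groups correlated at 0.0147 to 0.286 over 2354 bins. In level, replicate 1 had more of chromosome 4 covered than replicate 2 in most groups, such as 1.31% and 0.686% in the dTAG parental line at day 21. The exceptions were clone 8 (1.82% and 2.24%) and clone 11 (2.48% and 2.54%) at day 7. The permutation tests over all libraries do not take this into account.

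Leaving out single libraries gave 741 to 1182, 1017 to 1529 and 1136 to 1556 gained bins at days 7, 14 and 21, 4 to 9 lost bins, 0 to 630 bins that changed more in the clones and 135 to 187 gained genes. It gave differences in percent of 1.51 to 1.75, 1.65 to 2.21 and 1.69 to 2.25, and 1.74 to 2.24 from 10 Mb on. Log2 ratios were 0.61 to 0.66, 0.74 to 0.83 and 0.72 to 0.76, and 2.25 to 2.42 for bins from 10 Mb over 3 to 10 Mb. The log2 ratios to the other chromosomes kept p = 0.0286 (exact permutation) with stricter peaks and equal lengths at all 3 days. The cause of these changes was not tested. Peak lists hold no reads, so uncovered means below the caller's threshold at that depth.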
